A study of Mus musculus with 6 samples.

Results

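The Ms4a family encodes small proteins that cross the membrane 4 times, and 9 of its mouse genes are described here: Ms4a1, Ms4a3, Ms4a4b, Ms4a4c, Ms4a4d, Ms4a6b, Ms4a6c, Ms4a6d and Ms4a7. Members were taken by their gene symbol in the platform annotation, which gave 17 of the 45037 probe sets that are not array controls and 9 of the 18193 genes with a probe set of their own, and no probe set carried several of these symbols. The RNA came from bone marrow cells of healthy C57BL/6 mice, transfected either with an oligonucleotide that mimics miR-142-3p (100 nM, 3 arrays) or with a control oligonucleotide (CTRL, 3 arrays), and in both groups the reagent was GeneSilencer and GM-CSF and IL-6 followed 5 h later for 4 days, a culture that yields myeloid-derived suppressor cells (MDSCs). Affymetrix MOE430 2.0 arrays gave 1 deposited log2 value per probe set and array. Nothing in the labels states whether replicate arrays came from different cultures or animals, so the p-values rest on the spread among these arrays, which may be technical, and the number of arrays limits the precision.

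MS4A proteins keep both ends inside the cell and sit beside other receptors, whose signals they tune. The best known are Ms4a1, the B cell antigen CD20, and Ms4a2, the beta chain of the high-affinity IgE receptor on mast cells and basophils. Other members mark myeloid cells and their precursors or T cells, and several of the mouse Ms4a4 and Ms4a6 genes are expressed in macrophages, with Ms4a4c among the genes that interferon induces there. The genes lie side by side in a cluster on chromosome 19.

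The microRNA whose mimic was given is shown first, as its mature mouse form in RefSeq (GRCm38.p6, chr11:87756903-87756925, plus strand), with the seed, bases 2 to 8, in capitals.
mmu-miR-142a-3p: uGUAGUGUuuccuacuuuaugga

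Promoters of 2 pairs of nearby paralogs are shown because each pair lies close together in the cluster, shares a stretch of promoter, and can be set side by side in its values. Each window runs from 250 bases before to 50 bases after the annotated start in RefSeq (GRCm38.p6, plus strand), and capitals mark the longest run that both windows of a pair share letter for letter. The windows are chr19:11518309-11518608 for Ms4a6b, chr19:11469118-11469417 for Ms4a6c, chr19:11407411-11407710 for Ms4a4c and chr19:11443308-11443607 for Ms4a4b.
Ms4a6b: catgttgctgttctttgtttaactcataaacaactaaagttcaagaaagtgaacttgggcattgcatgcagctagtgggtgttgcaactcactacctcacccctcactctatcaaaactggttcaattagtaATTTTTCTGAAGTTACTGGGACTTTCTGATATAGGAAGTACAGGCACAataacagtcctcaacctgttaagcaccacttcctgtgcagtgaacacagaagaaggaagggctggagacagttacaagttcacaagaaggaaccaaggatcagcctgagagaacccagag
Ms4a6c: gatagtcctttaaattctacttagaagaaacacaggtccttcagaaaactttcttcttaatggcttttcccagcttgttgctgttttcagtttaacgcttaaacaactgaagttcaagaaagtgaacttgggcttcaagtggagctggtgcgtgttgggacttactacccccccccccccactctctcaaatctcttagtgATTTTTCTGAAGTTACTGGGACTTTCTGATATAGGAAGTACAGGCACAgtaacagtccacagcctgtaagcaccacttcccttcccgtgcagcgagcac
Ms4a4c: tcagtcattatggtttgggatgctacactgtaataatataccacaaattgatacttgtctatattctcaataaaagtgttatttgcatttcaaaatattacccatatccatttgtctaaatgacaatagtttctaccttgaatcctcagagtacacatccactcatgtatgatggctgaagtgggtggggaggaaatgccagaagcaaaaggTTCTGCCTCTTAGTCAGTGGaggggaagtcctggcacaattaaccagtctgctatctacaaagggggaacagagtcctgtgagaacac
Ms4a4b: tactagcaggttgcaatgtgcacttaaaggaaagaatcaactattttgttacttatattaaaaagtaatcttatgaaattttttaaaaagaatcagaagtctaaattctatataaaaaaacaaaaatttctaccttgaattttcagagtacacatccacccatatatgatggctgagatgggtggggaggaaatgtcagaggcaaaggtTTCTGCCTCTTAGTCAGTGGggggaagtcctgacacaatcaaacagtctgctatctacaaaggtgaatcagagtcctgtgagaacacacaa

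The Ms4a6b and Ms4a6c windows share a run of 48 bases, which begins 118 bases before the start of Ms4a6b and 49 bases before that of Ms4a6c. The Ms4a4b and Ms4a4c windows share a run of 20 bases. Of the 9 genes, 7 had a window, with 8 windows in all because Ms4a7 has 2 annotated starts, and Ms4a1 and Ms4a6d were not matched. In these 8 windows 4 short motifs were searched on both strands. The core of the interferon-stimulated response element (GAAANNGAAA) was in 0 of 8 windows, against 3.44% of all 32851 windows, and the core bound by STAT dimers (TTCNNNGAA) was in 0 of 8, against 8.30%. The core bound by PU.1 and other ETS factors (AGGAAG) was in the windows of Ms4a3, Ms4a6b and Ms4a6c, or 3 of 8, and in 35.4% of all windows, and 1 of the matches in Ms4a6b and the match in Ms4a6c lie inside the shared run of 48 bases. The letters of the TATA box (TATAAA) were in the window of Ms4a4b, 140 bases before its annotated start, and in 13.6% of all windows. A match in such a window is a string of letters and was not tested as a binding site.

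Control array 1 stood apart in these genes. It was the lowest of the 3 control arrays in 13 of 17 Ms4a probe sets, against 35% of all probe sets, and it had the lowest mean correlation with the other arrays of its group, 0.989 against 0.993 to 0.994 for the other 5 arrays. Among the 7 Ms4a probe sets with a mean log2 value of at least 5 it was lowest in all 7, against 47.2% of the 6153 probe sets as bright. Several genes have more than 1 of these probe sets, and by the brightest of each gene it was lowest in 8 of 9. The SD over arrays was lower in mimic than in control in 15 of the 17 (54.7% of all probe sets) and in all 7 bright ones (57.9% of those as bright). Results for the Ms4a genes are therefore given with all 6 arrays and also without this one. Medians and summed levels of other gene lists use all 6 arrays unless stated. The choice of this array rests in part on the members' own values. Leaving it out narrows the control SD where it lay apart, from 0.92 to 0.33 in the brighter Ms4a4c probe set. A lower p-value without it is therefore not independent support. Myeloid genes were bright in both groups: the mean log2 value of 6 general myeloid genes, among them Ptprc (CD45), Tyrobp and Lyz2, ran from 8.56 to 8.65 in mimic arrays and from 8.96 to 9.02 in control arrays. Of these 6 genes 2 fell with the mimic, Itgam, which encodes CD11b (log2 fold change -1.19 ± 0.17, limma's adjusted p = 0.0355), and the lysozyme gene Lyz2 (-0.53 ± 0.08, adjusted p = 0.0439). Itgam passed also without control array 1 (-1.38, adjusted p = 0.0321) and Lyz2 did not (-0.54, adjusted p = 0.0706).

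With the mimic, the bright members of the family had higher values, of which few passed the test. Ms4a1, the gene of CD20, was lower and passed by 1 of its 2 probe sets. Over all 45037 probe sets tested with limma, at a Benjamini-Hochberg adjusted p under 0.05, 2 of the 17 Ms4a probe sets rose (0.329% of all probe sets did), 1 fell (0.568% of all) and 14 did not pass, so 3 of 17 were called, against 0.897% of all. Over all probe sets 148 rose and 256 fell, a split that was 315 and 316 after quantile normalisation. The 2 that rose belong to Ms4a6d and Ms4a6b and the 1 that fell to Ms4a1. The median log2 fold change was 0.86 over the 17 probe sets and 0.002 over all probe sets. In 9 of the 17 all mimic arrays lay above all control arrays (8.62% of all probe sets), in 1 all lay below (8.9% of all), and in 7 the groups overlapped. Without control array 1, 5 rose (0.284% of all) and 1 fell (0.413%), or 6 in all against 0.697%, and the median was 0.64. Of the 7 bright Ms4a probe sets 1 rose (1.4% of those as bright) and 0 fell (1.51%), and all 7 had mimic arrays above control arrays (19.2%). These 7 include 2 probe sets each of Ms4a4c and Ms4a6d, so they are not 7 separate genes. With 1 probe set per gene, the brightest, and p-values adjusted over 18193 genes, Ms4a4c, Ms4a6b and Ms4a6d rose and Ms4a1 fell, so 3 of 9 genes rose (1.17% of genes) and 1 fell (1.59%), against 2.76% in either direction. Without control array 2, control array 3, mimic array 1, mimic array 2 or mimic array 3, 0 of the 17 passed. Over all probe sets 0 passed without any of these except control array 3, where 174 did, and 4579 to 5518 of the 45037 had an unadjusted p under 0.05 in the other 4 fits.

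**Figure D1:**
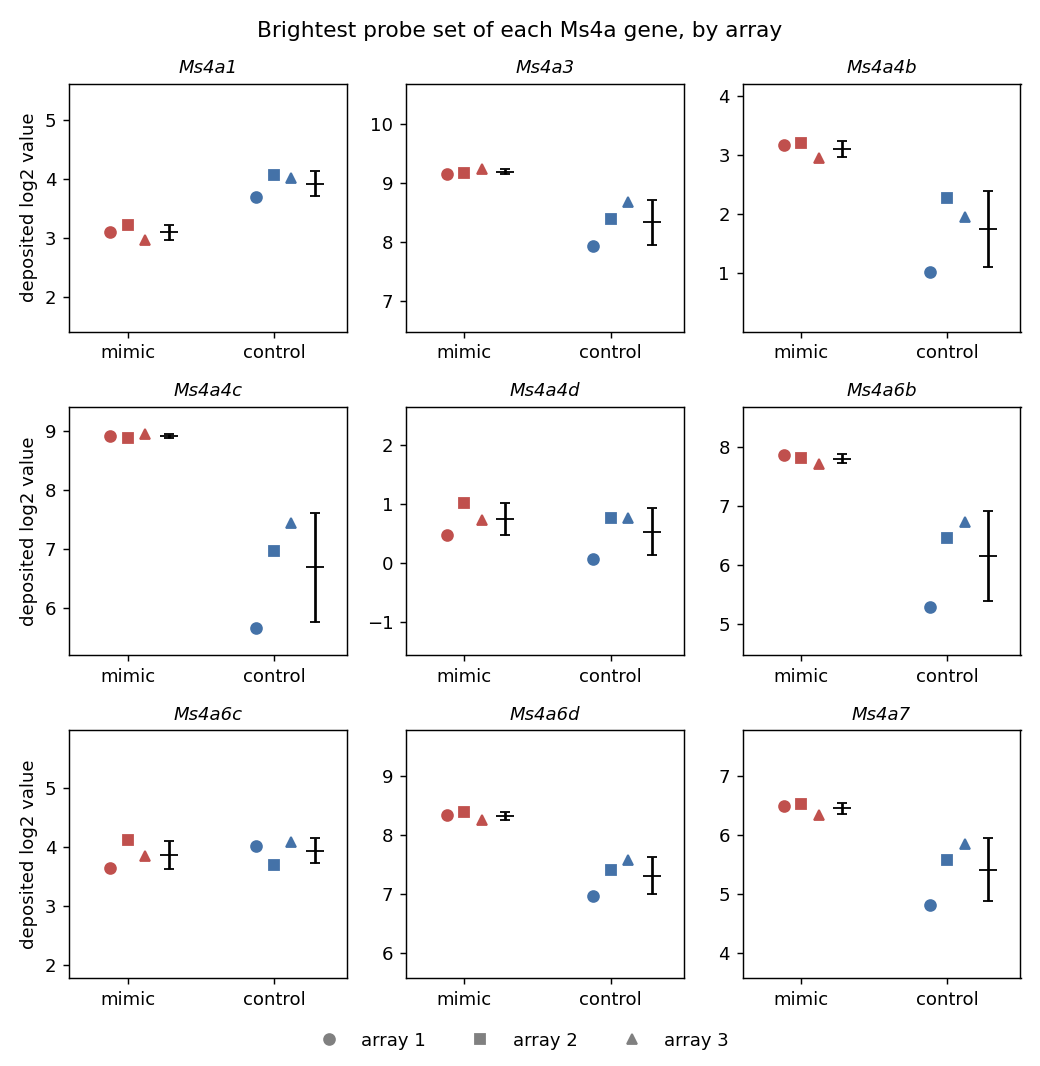
Deposited log2 value of the brightest probe set of each of the 9 Ms4a genes in each array, mimic arrays left and control arrays right of each panel, with the mean and SD (n = 3) as a black bar. Every panel spans the same number of log2 units, and the mimic arrays lie above all control arrays in 6 panels, below them in Ms4a1, and overlap them in Ms4a4d and Ms4a6c.

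Ms4a4c had the largest difference of the family. Its brighter probe set (1420671_x_at, Entrez gene 64380) read 8.91, 8.88 and 8.94 in mimic arrays 1 to 3, against 5.66, 6.96 and 7.43 in control arrays 1 to 3. The mimic arrays spanned 0.06 log2 units, while the control arrays were spread widely and all lay below. Its log2 fold change was 2.23 ± 0.40 (SE), or 4.68-fold, and limma's adjusted p was 0.0594 over all probe sets and 0.0292 over genes. Without control array 1 it was 1.71 ± 0.15, or 3.28-fold (limma's adjusted p = 0.0338). The second probe set (1450291_s_at) read 8.50, 8.51 and 8.21 in mimic arrays, against 4.43, 6.38 and 6.83 in control arrays. It showed the same separation, with a log2 fold change of 2.53 ± 0.55 (limma's adjusted p = 0.101) and of 1.80 ± 0.17 without control array 1 (adjusted p = 0.0345), a fold of 5.77 with all arrays and of 3.49 without that one. The endings of both probe set names mark sets whose probes can match related transcripts, so signal of Ms4a4c and of its paralogs could not be told apart here.

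Ms4a6b and Ms4a6d, the other bright members of the Ms4a4 and Ms4a6 branch, were also higher. Ms4a6b (Entrez gene 69774) read 7.86, 7.81 and 7.71 in mimic arrays, against 5.28, 6.45 and 6.72 in control arrays, by its brighter probe set. Here too all mimic arrays were above all controls and control array 1 was the lowest. The log2 fold change was 1.64 ± 0.34, or 3.13-fold (limma's adjusted p = 0.0840 over all probe sets and 0.0442 over genes), and it was 1.21 ± 0.11 without control array 1 (adjusted p = 0.0345). Its dim probe set (1439956_at) read 2.67, 2.97 and 2.35 in mimic arrays, against 0.07, 1.23 and 1.0 in control arrays. This one rose, by a log2 fold change of 1.90 ± 0.30 (limma's adjusted p = 0.0445), and by 1.55 ± 0.19 without control array 1 (adjusted p = 0.0486).

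Ms4a6d (Entrez gene 68774), which in mouse macrophages partners the receptor Vsig4 in restraining inflammasome activity, rose by 1 of its 3 probe sets. Its brightest probe set (1419599_s_at) read 8.34, 8.39 and 8.26 in mimic arrays, against 6.96, 7.41 and 7.57 in control arrays. All mimic arrays were above all controls, which again were the more spread. The log2 fold change was 1.01 ± 0.16, or 2.02-fold (limma's adjusted p = 0.0423), and 0.84 ± 0.09 without control array 1 (adjusted p = 0.0404). The ending of this probe set's name, too, marks a set whose probes can match related transcripts. Signal of Ms4a6d and of its paralogs could not be told apart in it. A second bright probe set (1419598_at) read 7.71, 7.70 and 7.56 in mimic arrays, against 6.35, 6.94 and 7.10 in control arrays. The groups did not overlap, but it did not pass (log2 fold change 0.86 ± 0.19, limma's adjusted p = 0.103), nor did it without control array 1 (0.64 ± 0.10, adjusted p = 0.0710). The third (1449539_at) lay at the bottom of the scale in both groups, from -0.08 to -0.05 in mimic arrays and from -0.19 to -0.05 in control arrays, with a log2 fold change of 0.07 ± 0.08 (limma's adjusted p = 0.807).

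Ms4a7 (Entrez gene 109225), a gene of macrophages, read 6.48, 6.52 and 6.34 in mimic arrays, against 4.81, 5.57 and 5.83 in control arrays. The groups did not overlap and control array 1 was the lowest. Its log2 fold change of 1.04 ± 0.24, or 2.06-fold, did not pass (limma's adjusted p = 0.119), nor did that of 0.74 ± 0.12 without control array 1 (adjusted p = 0.0749). The dim second probe set (1445365_at) read 0.35, 1.02 and 0.35 in mimic arrays, against 0.09, 0.35 and 0.07 in control arrays, where the groups overlapped (log2 fold change 0.41 ± 0.19, limma's adjusted p = 0.434). Of 10 macrophage markers measured, Adgre1, Cd68, Csf1r and C1qa among them, 0 rose and 0 fell with all arrays (median log2 fold change 0.08), and without control array 1 the complement gene C1qa fell (-0.60, limma's adjusted p = 0.0486). Their summed linear level, 2 raised to each log2 value, ran from 1298 to 1369 in mimic arrays and from 1440 to 1442 in control arrays, and Cd163 was the one marker with a mean log2 value under 1. The direction of that sum, as seen after the values were known, rests on Csf1r, the receptor for the growth factor CSF-1: the other 9 markers summed to 877 to 928 in mimic arrays and 791 to 845 in control arrays. The largest log2 fold change of the list was 0.79 ± 0.14 in C1qb, another complement gene (limma's adjusted p = 0.0569). In bulk RNA, more cells of a type and more RNA per cell cannot be told apart, for these genes and those that follow.

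Ms4a3 (Entrez gene 170813), also called HTm4, is a gene of granulocyte-monocyte progenitors, and its human protein binds a phosphatase of the cell cycle kinases. It read 9.16, 9.18 and 9.25 in mimic arrays, against 7.94, 8.40 and 8.68 in control arrays, through its 1 probe set. All mimic arrays were above all controls. Its log2 fold change was 0.86 ± 0.18, or 1.81-fold, which did not pass over all probe sets (limma's adjusted p = 0.0917) or over genes (adjusted p = 0.0508), and it was 0.65 ± 0.11 without control array 1 (adjusted p = 0.0859). Genes of the progenitors and neutrophil precursors in which Ms4a3 is expressed were also higher in their means. Of 7 measured, Ctsg rose (1.08 ± 0.15, limma's adjusted p = 0.0318), 0 fell, and the median log2 fold change was 0.97, or 0.69 without control array 1. Their summed linear level ran from 5468 to 5548 in mimic arrays and from 2119 to 3586 in control arrays, and none of the 7 had a mean log2 value under 1. Without control array 1, 4 of the 7 rose. The part of these cells in the value of Ms4a3 was not tested.

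Among the dim members, Ms4a4b (Entrez gene 60361), first described in T cells, where its protein slows proliferation, read 3.16, 3.19 and 2.95 in mimic arrays, against 1.01, 2.26 and 1.94 in control arrays. The groups did not overlap in this probe set (1423467_at), with a log2 fold change of 1.36 ± 0.29, or 2.57-fold (limma's adjusted p = 0.0964), and of 1.0 ± 0.13 without control array 1 (adjusted p = 0.0557). The other (1425325_at) lay near 0 in both groups, from -0.02 to 0.27 in mimic arrays and from -0.06 to 0.36 in control arrays (log2 fold change -0.04 ± 0.13, limma's adjusted p = 0.936). Of 8 T and NK cell markers 0 rose and 0 fell (median log2 fold change 0.06). Their summed linear level ran from 45.3 to 51.1 in mimic arrays and from 22.9 to 33.6 in control arrays, and Cd3g, Cd2 and Ncr1 had a mean log2 value under 1. The difference in that sum lies in Nkg7, a gene of cytotoxic granules: the other 7 markers summed to 17.7 to 18.0 in mimic arrays and 16.95 to 19.01 in control arrays. Nkg7 had a log2 fold change of 1.63 ± 0.35 (limma's adjusted p = 0.0977) and passed without control array 1 (1.17, adjusted p = 0.0383). The part of T and NK cells in the value of Ms4a4b was not tested.

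Ms4a6c and Ms4a4d showed no detectable difference. Ms4a6c (Entrez gene 73656) read 3.63, 4.11 and 3.84 in mimic arrays, against 4.01, 3.69 and 4.09 in control arrays, by its brighter probe set (1457725_at), and 3.76, 3.60 and 3.55 in mimic arrays, against 2.91, 3.61 and 3.80 in control arrays, by the other. The groups overlapped in both, with log2 fold changes of -0.07 (95% interval -0.43 to 0.29) and 0.19 (-0.32 to 0.71). Ms4a4d (Entrez gene 66607) was dim in every array, at 0.48, 1.02 and 0.74 in mimic arrays and at 0.08, 0.77 and 0.77 in control arrays, with a log2 fold change of 0.21 (-0.31 to 0.72). Limma's adjusted p was 0.899 and 0.778 for Ms4a6c and 0.763 for Ms4a4d. Their groups overlapped, and the intervals leave room for differences up to the bounds given. Without control array 1 the values were -0.03 and -0.07 for Ms4a6c and -0.02 for Ms4a4d.

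Ms4a1 (Entrez gene 12482), which encodes CD20, fell by 1 of its 2 probe sets. Its brighter probe set (1423226_at) read 3.11, 3.23 and 2.97 in mimic arrays, against 3.69, 4.07 and 4.02 in control arrays. All mimic arrays were below all controls. The log2 fold change was -0.82 ± 0.13, or 1.77-fold lower (limma's adjusted p = 0.0423), and it was -0.94 ± 0.10 without control array 1 (adjusted p = 0.0394). The dimmer probe set (1450912_at) read 2.35, 2.48 and 2.07 in mimic arrays, against 2.44, 2.85 and 2.87 in control arrays. It overlapped between groups and did not pass (log2 fold change -0.42 ± 0.16, limma's adjusted p = 0.303), nor did it without control array 1 (-0.56 ± 0.13, adjusted p = 0.179). Of 9 other B cell markers 0 rose and 0 fell, and their median was -0.41 on the log2 fold change scale, or -0.26 without control array 1. The largest was -0.59 ± 0.17 in the kinase gene Blk (limma's adjusted p = 0.181). Their summed linear level ran from 80.0 to 96.8 in mimic arrays and from 97.6 to 148 in control arrays, with Ebf1, Vpreb1 and Cr2 at a mean log2 value under 1. Of 9 measured genes of the B cell receptor complex and of CD20's partners, Btk, a kinase that also acts in myeloid cells, fell (-0.60 ± 0.10, limma's adjusted p = 0.0475) and 0 rose, but Btk did not pass without control array 1 (-0.64, adjusted p = 0.0743). The part of B cells in the value of Ms4a1 was not tested.

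**Figure D2:**
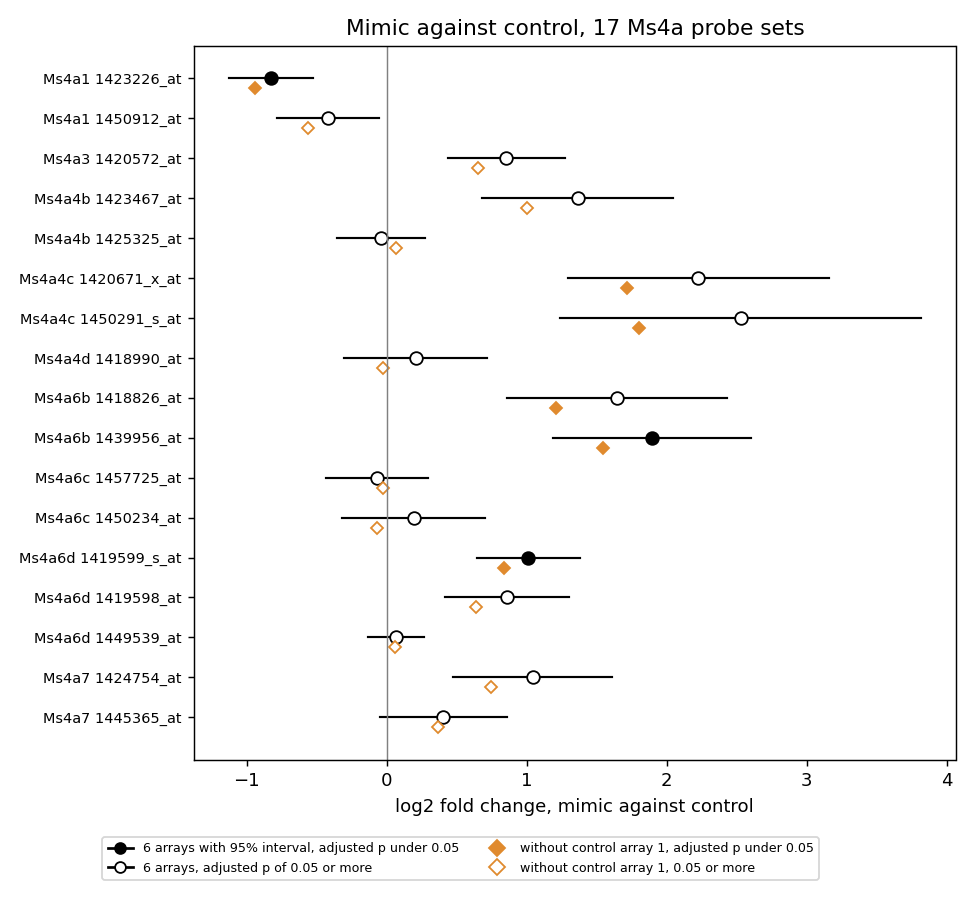
Log2 fold change of mimic against control for all 17 Ms4a probe sets, with all 6 arrays (circles, 95% interval as a line) and without control array 1 (diamonds), filled where the adjusted p was under 0.05. With control array 1 left out the larger positive values lie nearer 0 (the brighter Ms4a4c probe set at 1.71 in place of 2.23), and 5 probe sets rose in place of 2.

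The paralogs whose promoters are printed above were also compared with each other, in a comparison added after the values were seen. The log2 ratio of Ms4a6b to Ms4a6c, by their brighter probe sets, was 1.71 higher in mimic arrays, with no overlap between groups (exact two-sided permutation p = 0.1, the smallest that 3 against 3 arrays allow). It was 1.24 higher without control array 1. The log2 ratio of Ms4a4c to Ms4a4b was 0.86 higher in mimic arrays, also without overlap (exact two-sided permutation p = 0.1), and 0.71 higher without control array 1. With the probe sets of a gene averaged it was 1.72 higher. That average takes in the Ms4a4b probe set that lay near 0 in both groups, with Ms4a4b at 0.66 in place of 1.36. The brighter Ms4a4b probe set is itself dim, and the Ms4a4c probe sets can match related transcripts. Whether the 2 genes differ in response cannot be read from this ratio. The brighter Ms4a6c probe set had a mean log2 value of 3.90, under the 5 used here for bright ones. This limits the ratio of Ms4a6b to Ms4a6c too. The p-values adjusted over the 2 comparisons are also 0.1. With 0.1 the smallest possible p, this test could not pass the threshold used here and decides nothing for either pair. Nor does the adjustment count that the comparison was added after the values were seen.

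Position in the cluster was read from the RefSeq gene order, in which 21 Ms4a genes follow each other on chromosome 19 and 17 of them had a probe set of their own here. The genes after Ms4a1 run in the order Ms4a7, Ms4a4a, Ms4a4c, Ms4a4b, Ms4a6c, Gm8369, Ms4a6b, Ms4a4d, Ms4a6d, Ms4a2 and Ms4a3. Of the 17 measured Ms4a genes, the 7 with the largest positive log2 fold changes, from 0.86 in Ms4a3 to 2.23 in Ms4a4c, lie in that stretch, though by these probe sets Ms4a6d alone among them passed over all probe sets. Between them lie Ms4a6c, Ms4a4d and Gm8369 (0.61 ± 0.17, limma's adjusted p = 0.184). Before Ms4a1 the largest was 0.60 ± 0.16 in Ms4a8a (limma's adjusted p = 0.166). The 5 protein-coding genes before the cluster, Tmem109 to Ccdc86, had log2 fold changes from -0.22 to 0.25. Those of the 5 after it, Oosp2 to Mrpl16, ran from -0.04 to 0.47, and none of these 10 passed. Zp1, Oosp2, Oosp3 and Cblif averaged under 1 in both groups. Ptgdr2 (1.09 in mimic and 0.85 in control arrays) and Oosp1 (1.05 and 0.58) were also dim. In genes this dim a small value cannot be read as no response, so they do not show where a change ends.

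**Figure D3:**
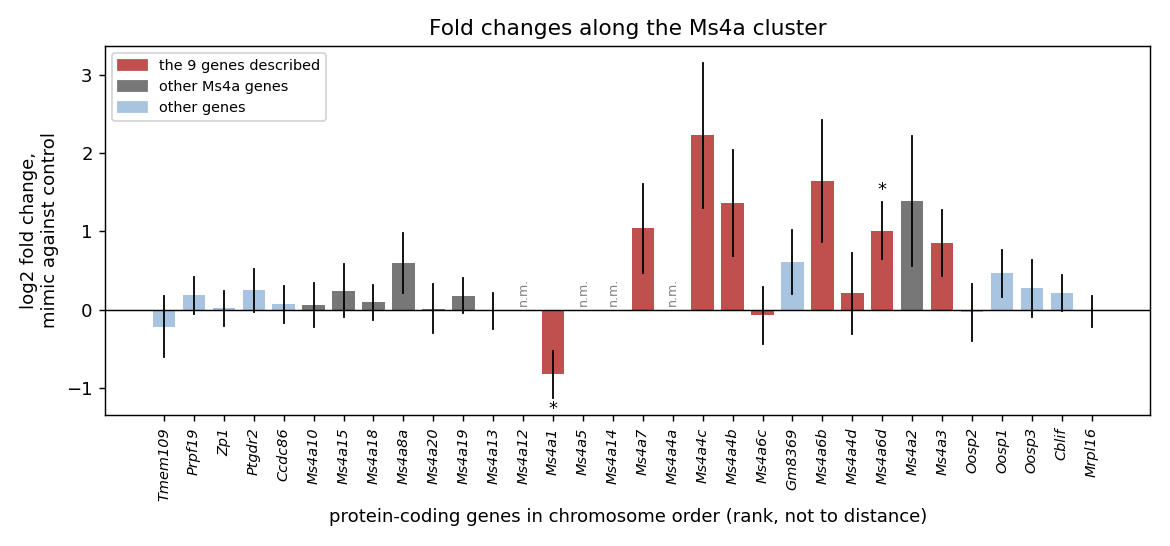
Log2 fold change of mimic against control (bars, with the 95% interval as a line) for the brightest probe set of each protein-coding gene in RefSeq order along the Ms4a cluster and 5 genes on each side, where n.m. marks genes with no probe set of their own here and an asterisk an adjusted p under 0.05. The tall bars stand between Ms4a7 and Ms4a3, with Ms4a4c highest at 2.23, and Ms4a1 is the 1 gene that fell.

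In a list of other family genes and their relatives Tmem176a and Tmem176b, 0 of 9 measured rose and 0 fell (median log2 fold change 0.06), and Ms4a10, Ms4a13, Ms4a18 and Ms4a20 had a mean log2 value under 1. Ms4a19, which was not on that list, averaged 0.08 in mimic arrays and -0.10 in control arrays and did not pass (log2 fold change 0.18, limma's adjusted p = 0.496). The largest value was that of Ms4a2, the IgE receptor beta chain, at 5.89 ± 0.05 with the mimic and 4.50 ± 0.82 in control (SD, n = 3), with a log2 fold change of 1.39 ± 0.36 (limma's adjusted p = 0.146), or 0.93 without control array 1 (adjusted p = 0.0564). Of the other chains of that receptor, Fcer1a (alpha) rose, with a log2 fold change of 1.40 ± 0.21 (limma's adjusted p = 0.0398), but not without control array 1 (1.18, adjusted p = 0.0562). The value of Fcer1g (gamma), which macrophages also express, was -0.11 ± 0.08 (adjusted p = 0.654). Of 6 mast cell and basophil markers Fcer1a rose and 0 fell, and the list's median was 0.60, or 0.43 without control array 1. Without control array 1 the mast cell protease gene Cpa3 rose in place of Fcer1a (0.81, limma's adjusted p = 0.0486, against 1.06 ± 0.21 and 0.0782 with all arrays).

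The arrays were also compared by 2 of the gene lists. With the control mean set to 0, the 9 genes by their brightest probe sets had a median of 1.02, 1.07 and 0.93 in mimic arrays 1 to 3, and -0.46, 0.16 and 0.26 in control arrays 1 to 3. For 19 measured genes of the type I interferon response it was 0.97, 1.02 and 1.11 in mimic arrays, and -0.33, 0.10 and 0.27 in control arrays. For the 7 neutrophil precursor genes it was 0.98, 0.97 and 0.95 in mimic arrays, and -0.46, 0.10 and 0.35 in control arrays. In all 3 medians control array 1 was lowest and the mimic arrays were close together. That course was not theirs alone. The mast cell and basophil list had 0.57, 0.57 and 0.71 in mimic arrays, and -0.46, 0.15 and 0.28 in control arrays. Other lists ran lower with the mimic, such as the dendritic cell list. It had -0.54, -0.82 and -0.57 in mimic arrays, and 0.47, -0.18 and -0.29 in control arrays. Of the 19 interferon genes 5 rose and 0 fell, the largest being Rsad2 (log2 fold change 2.33 ± 0.38, limma's adjusted p = 0.0483), Ifit3 (2.14 ± 0.29, adjusted p = 0.0309) and Mx1 (1.58 ± 0.17, adjusted p = 0.0194), and 9 rose without control array 1. The part of interferon signalling in the Ms4a values was not tested. Of the other lists, 4 of 9 dendritic cell genes fell, by the most Ccl17, Ccl22 and Itgax (log2 fold changes -4.55, -3.52 and -2.80), Fn1 fell among 5 monocyte genes (-2.27) and Mmp8 among 7 genes of mature neutrophils (-0.95), and 0 rose in these 3 lists. The 4 dendritic cell genes and Mmp8 passed also without control array 1, and Fn1 did not (-2.01, limma's adjusted p = 0.0691).

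**Figure D4:**
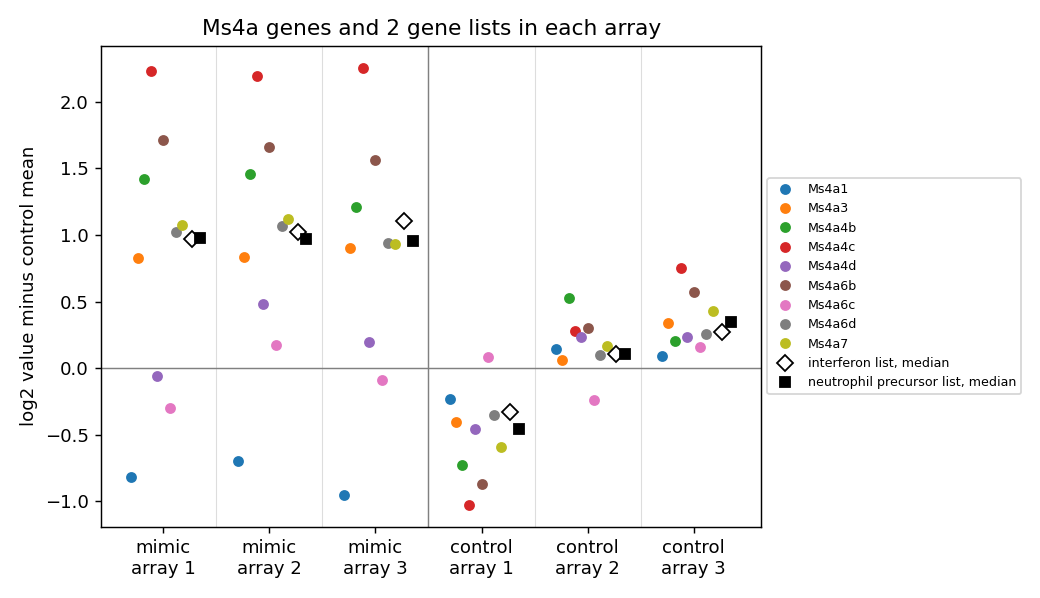
Log2 value minus the control mean in each array, for the brightest probe set of each of the 9 Ms4a genes (coloured points), the median of 19 interferon response genes (open diamonds) and the median of 7 neutrophil precursor genes (black squares). In control array 1 both list medians and 8 of the 9 genes lie below 0, and Ms4a6c alone lies above it, at 0.08.

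Genes outside the family whose pattern was most like that of the 2 members with the largest change were found by Pearson correlation over the 6 arrays, among 4087 genes with a mean log2 value of at least 5. For Ms4a4c these were Ifit2, Ifit1, Cpa3, Rsad2 and Pcmt1, with r from 0.998 to 0.999. For Ms4a6b they were Phf11d, Myb, Ifi209, Cxcl10 and Mpo, with r from 0.998 to 0.999. The 6 arrays share the group difference and the place of control array 1, and r was over 0.95 for 265 genes with Ms4a4c and for 273 with Ms4a6b, so these values describe a course that many genes had.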

How the data were processed

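Data of 6 arrays in 2 groups were used, 3 mimic and 3 control, grouped by the treatment in the labels and numbered as in the titles. The values are the authors' deposited log2 values, 1 per probe set and array, and per the submitters' processing notes RMA and affy were used, with version, role, probe set definitions and filters not given in the sources used here. Values ran from -0.39 to 12.3 and 52.6% lay below 1, with centring and floor not stated, so a low value is called dim here and no gene's level is ranked against another's. Summed levels and ratios of 2 genes are set only against the same sum or ratio in other arrays. Of 45101 probe sets, 64 array controls were left out. Gene symbols are those of the platform annotation. It gives 1 symbol to 34945 probe sets, several to 932 and none to 9160.

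The test was limma's moderated one (version 3.58.1, under R 4.3.3), two-sided and without covariates, with Benjamini-Hochberg adjustment over all probe sets and a threshold of 0.05. Members, lists and tests were chosen with earlier results of these data known. All 9 genes and 17 probe sets are named. From lists of other genes, up to 3 with the largest change among those that passed are named, or else the 1 with the largest change, and lists of 5 or fewer in full. A list uses the brightest probe set of each gene. The fit was tested on simulated data with independent noise and no array that stood apart. That test cannot speak to the effect of control array 1. Replicate numbers were not taken as pairs, since the titles do not say that they mark a shared animal, litter or day. Same-numbered arrays correlated at -0.11, 0.19 and -0.24 in their deviations from the group means. Differently numbered ones ran from -0.27 to 0.30, and so few values cannot decide whether the arrays were paired. The planned protein comparison was not made because protein sequences were not used here.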

Additional observations from a re-analysis of the deposited data

How the results depend on the processing

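Of the 15 alternatives, those that leave out 1 array gave 0 to 5 Ms4a probe sets higher and 0 to 1 lower with the mimic, and 0 to 128 higher and 0 to 186 lower over all probe sets. With the replicate block, in which array numbers enter as pairs, 0 Ms4a probe sets were higher and 0 lower, against 18 higher and 51 lower in all. Array weights gave 7 Ms4a probe sets higher and 1 lower, and 363 higher and 581 lower in all. A trended robust variance gave 7, 1, 330 and 482, and quantile normalisation gave 4, 1, 315 and 316. Testing only probe sets with a mean log2 of at least 3, of which 10 are Ms4a, gave 6 Ms4a higher and 1 lower. Of all 12208 probe sets tested in that fit, 329 were higher and 506 lower. The 1 that was lower in these fits was the brighter probe set of Ms4a1. At a mean of at least 5, with 7 Ms4a left and Ms4a1 not among them, 7 Ms4a were higher and 0 lower. Of all 6153 probe sets tested there, 358 were higher and 422 lower. Averaging the probe sets of a gene gave 5 of 9 Ms4a genes higher and 0 lower, and 197 higher and 280 lower of 18193 genes, with Ms4a1 at -0.62 (adjusted p = 0.0576 by limma). Some of these fits have fewer arrays or probe sets than the main one, and the cause of the shifts was not tested.

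Values changed sign only where they were small. Ms4a6c turned to 0.063 when averaged, and Ms4a4b (1425325_at) to 0.029 with array weights. With 1 array left out, Ms4a4b (1425325_at) ran from -0.14 to 0.068, Ms4a4d from -0.023 to 0.34, and Ms4a6c from -0.19 to 0.045 in 1 probe set and from -0.070 to 0.37 in the other. The brighter Ms4a4c probe set ran from 1.71 to 2.60 over the alternatives. Signal over background could not be judged, since no detection calls were used here.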
